A study of Mus musculus with 3 samples.

Results

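The genes that encode Wnt ligands and their receptors were examined in an ATAC-seq comparison of 2 classes of mouse cortical projection neurons. ATAC-seq uses a transposase to cut and tag open chromatin, and a peak is a stretch where the tags pile up above the background. A gene was included if it was a protein-coding gene of the mm10 RefSeq table with a symbol of Wnt or Fzd followed by a digit, or if it was Lrp5, Lrp6, Ryk, Ror1 or Ror2. The rule gave 34 of 21887 protein-coding genes, made up of 19 Wnt ligands, 10 Frizzled receptors, 2 LRP co-receptors and the 3 receptors Ryk, Ror1 and Ror2. The rule used names only and no measured value. Corticospinal motor neurons (CSMN), which send axons from the cortex to the spinal cord, gave 1 library, and callosal projection neurons (CPN), which join the hemispheres, gave 2 libraries, called CPN 1 and CPN 2. Each library came from 50000 FACS-sorted cells of mouse brain. The labels name no treatment or genotype, and give neither the sorting markers nor the age, sex or strain.

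Wnt proteins are secreted, lipid-modified signals that bind Frizzled receptors at the cell surface. With LRP5 or LRP6 as co-receptor they stabilize β-catenin, which activates genes together with TCF/LEF factors, and with ROR or RYK receptors they act on cell polarity and axon growth without β-catenin. In the developing nervous system Wnt signals pattern the forebrain, promote dendrites and synapses, and guide axons, including those of the mouse corticospinal tract, which Wnt5a repels through Ryk.

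The peak lists held 98067 peaks for CSMN, 134018 for CPN 1 and 158779 for CPN 2, of which 166 in CSMN, 266 in CPN 1 and 323 in CPN 2 lay at the 34 genes, in the gene body or within 10 kb of either end. The CSMN list was also weaker, since 55.2% of its peaks reached a −log10 q of 5, against 72.4% in CPN 1 and 65.4% in CPN 2. CSMN had 1 library and no replicate, and no test between the cell types was made, so the values below are counts beside those of all protein-coding genes, and the part of list length and strength in each difference was not tested. The lists hold no read totals. Marker genes of subcerebral neurons did not separate the libraries. Of 8 subcerebral markers, 6 had a promoter or gene-end peak in CSMN and also 6 in CPN 1 and 6 in CPN 2, with Bcl11b and Sox5 absent in every library. General neuronal markers had such a peak in CSMN, CPN 1 and CPN 2 at 5, 6 and 7 of 8. Genes of other cell types had one at 5, 5 and 6 of 6 interneuron markers, 4, 4 and 4 of 6 astrocyte markers and 3, 3 and 3 of 6 oligodendrocyte markers. The counts were 3, 4 and 3 of 6 microglial markers, 6, 6 and 6 of 6 endothelial and mural markers, and 5, 6 and 6 of 6 progenitor markers. Over all protein-coding genes such a peak was found at 63.7% in CSMN, 66.4% in CPN 1 and 66.8% in CPN 2. With so few genes per list, the purity of the sorted cells was not tested.

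Peaks of the 3 lists that overlapped by at least 1 bp were merged into regions. A region was called CSMN-only if CSMN had a peak there and neither CPN library did, and CPN-only if both CPN libraries had a peak there and CSMN did not. The fold given for a peak is the authors' enrichment at its summit, and its percentile is the rank of that fold within its own list. Folds and percentiles describe peaks within a list and are not compared between libraries. Intervals after a share are 95% Wilson intervals for counting error alone.

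With the full lists, windows around 4 starts of Wnt ligands overlapped regions open in both CPN libraries and not in CSMN. Every receptor start with a known position was open in all 3 libraries. RefSeq promoter windows, from 250 bases before to 50 bases after a start in GRCm38.p6, were at hand for 24 of the 34 genes. They were matched by gene identifier, and Fzd2, Fzd3, Fzd6, Fzd8, Lrp5, Lrp6, Wnt10a, Wnt5a, Wnt7b and Wnt8a had no entry. Over these windows 24 regions were found, of which 20 were open in all 3 libraries, 0 were CSMN-only and 4 were CPN-only. Over all protein-coding promoters 90.2% of 11883 regions were open in all 3 libraries, 1.11% were CSMN-only and 3.92% were CPN-only. The CPN-only share at the Wnt and receptor starts was thus 16.7% (interval 6.68 to 35.9). All 4 CPN-only start regions belonged to ligands, namely Wnt1, Wnt10b, and a start each of Wnt5b and Wnt11 that lies apart from their strongest start. The 250 bases before these 4 starts are shown as the sequence upstream of the starts with this difference, although the differing regions need not lie in them. At Wnt10b the CPN-only region, at 98777962 to 98778136, lay inside the gene and outside the bases shown. At Wnt5b the CPN 1 summit lay 146 bases into the gene. The bases before the starts of Ror1 and Fzd1, the genes with the strongest promoter peaks that had a window, are shown for contrast as starts open in every library. Capitals mark matches on either strand to the GC box GGGCGG bound by Sp1-type factors, the TCF/LEF motif CTTTGAT and the E-box CAGATG.
Wnt1, chr15:98789607-98789856, plus strand: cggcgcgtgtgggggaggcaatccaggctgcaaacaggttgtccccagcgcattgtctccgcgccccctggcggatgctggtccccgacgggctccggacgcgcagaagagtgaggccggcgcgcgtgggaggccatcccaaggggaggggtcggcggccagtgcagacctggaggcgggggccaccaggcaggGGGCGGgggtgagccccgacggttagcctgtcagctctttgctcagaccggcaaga
Wnt10b, chr15:98778151-98778400, minus strand: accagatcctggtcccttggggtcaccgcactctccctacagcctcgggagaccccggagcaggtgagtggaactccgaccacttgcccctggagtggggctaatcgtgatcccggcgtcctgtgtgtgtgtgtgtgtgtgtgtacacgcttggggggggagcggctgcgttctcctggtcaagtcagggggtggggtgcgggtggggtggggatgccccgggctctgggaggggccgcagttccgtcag
Wnt5b, chr6:119449387-119449636, minus strand: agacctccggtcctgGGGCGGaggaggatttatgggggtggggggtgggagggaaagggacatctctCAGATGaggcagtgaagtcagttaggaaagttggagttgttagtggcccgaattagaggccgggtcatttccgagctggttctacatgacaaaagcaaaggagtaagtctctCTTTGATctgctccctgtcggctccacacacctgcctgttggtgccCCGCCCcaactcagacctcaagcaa
Wnt11, chr7:98834862-98835111, plus strand: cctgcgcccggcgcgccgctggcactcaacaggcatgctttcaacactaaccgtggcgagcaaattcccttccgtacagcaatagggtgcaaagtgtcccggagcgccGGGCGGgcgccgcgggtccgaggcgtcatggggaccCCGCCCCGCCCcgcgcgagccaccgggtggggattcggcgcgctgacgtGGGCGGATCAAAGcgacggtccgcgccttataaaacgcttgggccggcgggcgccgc
Ror1, chr4:100095541-100095790, plus strand: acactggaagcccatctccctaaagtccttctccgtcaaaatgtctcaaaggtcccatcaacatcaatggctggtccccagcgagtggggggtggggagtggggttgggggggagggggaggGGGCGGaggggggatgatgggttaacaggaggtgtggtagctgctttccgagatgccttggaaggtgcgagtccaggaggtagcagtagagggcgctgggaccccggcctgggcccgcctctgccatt
Fzd1, chr5:4758217-4758466, minus strand: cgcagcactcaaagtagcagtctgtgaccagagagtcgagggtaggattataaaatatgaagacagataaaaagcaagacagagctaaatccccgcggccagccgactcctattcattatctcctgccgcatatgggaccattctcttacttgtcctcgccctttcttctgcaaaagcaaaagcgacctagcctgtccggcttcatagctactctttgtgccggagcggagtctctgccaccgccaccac

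Wnt1, a signal of the midbrain-hindbrain boundary, had no CSMN peak over its start, and the nearest CSMN peak lay 1487 bp from the window with a fold of 2.19. The CPN peaks over the Wnt1 start reached 3.56-fold in CPN 1 and 3.41-fold in CPN 2, with summits 150 and 99 bases before the start. Wnt1 was the only member whose start region was CPN-only in each of 6 other settings tried. Its neighbor Wnt10b, a ligand studied in bone and fat formation, had a CPN-only region at its start of 3.28-fold in CPN 1 and 2.73-fold in CPN 2, where the CPN 2 peak stopped 2 bp short of the window, and the nearest CSMN peak was 1587 bp away. The separate Wnt5b start at 119449386 of chromosome 6 had a CPN-only region, with the strongest summit 183 bases into the gene, of 3.70-fold in CPN 1 and 5.43-fold in CPN 2, where the CPN 2 peak lay outside the window. The Wnt11 start at 98835112 of chromosome 7 had no CSMN peak and a fold of 2.97 in CPN 1 and of 2.289 in CPN 2, whereas the Wnt11 start at 98838845 was open in all 3 libraries with folds of 3.24 in CSMN, 4.92 in CPN 1 and 5.68 in CPN 2. These CPN-only start regions were weak peaks within their lists, below the median fold of promoter peaks over all genes, 13.4 in each CPN list, and the part of low strength in their absence from CSMN was not tested. With lists of equal length 2 of 24 start regions were CPN-only, at Wnt1 and Wnt5b, against 2.45% over all genes. With peaks of −log10 q of at least 5 alone, 4 of 24 were CPN-only, at Fzd10, Wnt1, Wnt3 and Wnt5b, against 5.21%. Without CPN 1, 2 of 21 were CPN-only, at Wnt1 and Wnt11, against 6.92%.

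The remaining differences at promoters came from the edges of the windows. Wnt4, a ligand of kidney and commissural axon development, had a CPN peak in its window with folds of 3.95 in CPN 1 and 4.75 in CPN 2, while the CSMN peaks lay on either side of it, a stronger peak of 3.45-fold before it and a peak of 2.28-fold that began 9 bp beyond it. Wnt6, a ligand of epithelial development, had a peak in the window in CPN 1 alone, with a fold of 3.50, while the CPN 2 peak lay 1 bp outside and the CSMN peak 149 bp outside. Once merged, the start regions of Wnt4 and Wnt6 were open in all 3 libraries. Wnt3a and Wnt8b, ligands of the cortical hem and its surroundings, had no peak in the window in any library. At Wnt3a the nearest peaks were 93 bp away in CSMN, 4 bp in CPN 1 and 2754 bp in CPN 2, and at Wnt8b they were at least 17873 bp away in each library. Counting peaks in the window or, for the 10 genes without a window, within 1 kb of a gene end, 28 of 34 genes had a promoter peak in CSMN, 32 in CPN 1 and 30 in CPN 2. Over all protein-coding genes these shares were 63.7% in CSMN, 66.4% in CPN 1 and 66.8% in CPN 2. Among the 24 genes with a window, 18 had a peak in it in CSMN, 22 in CPN 1, 20 in CPN 2 and 18 in every library, against 62.7%, 65.3%, 65.5% and 61.3% of all genes with a window. The 10 genes judged by their ends had a peak in each library, against 67.6% of such genes in CSMN, 70.8% in CPN 1 and 72.2% in CPN 2. All 15 receptor genes had a promoter or gene-end peak in every library, as did 13 of 19 ligand genes in CSMN, 17 in CPN 1 and 15 in CPN 2.

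Ligand promoter and gene-end peaks were also weaker by median than those of receptors inside every list. Among the ligands with a promoter peak the median fold was 3.31 in CSMN, 4.92 in CPN 1 and 4.95 in CPN 2, and the median percentile was 61.4 in CSMN, 64.3 in CPN 1 and 67.6 in CPN 2. The 15 receptors had median folds of 6.75 in CSMN, 10.4 in CPN 1 and 11.3 in CPN 2, and median percentiles of 87.7 in CSMN, 89.0 in CPN 1 and 91.5 in CPN 2. Over all genes with a promoter peak the median folds were 8.16 in CSMN, 13.4 in CPN 1 and 13.4 in CPN 2, so that 0 of 13 ligands in CSMN, 0 of 17 in CPN 1 and 0 of 15 in CPN 2 lay above the median gene. Wnt16, a ligand known from bone, had the strongest ligand promoter in CSMN and CPN 1, with folds of 6.72 in CSMN, 10.3 in CPN 1 and 8.79 in CPN 2. Wnt7b, judged by its ends, had the weakest ligand peak in CSMN, 2.08, at its upper gene end. Its CPN peaks, 2.66 in CPN 1 and 3.54 in CPN 2, lay at its lower end, so the libraries were not scored at the same site. A stronger region lay just beyond the 1 kb searched at the upper gene end, at 85582996 to 85583921 of chromosome 15, with folds of 4.33 in CSMN, 9.89 in CPN 1 and 11.4 in CPN 2.

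**Figure D1:**
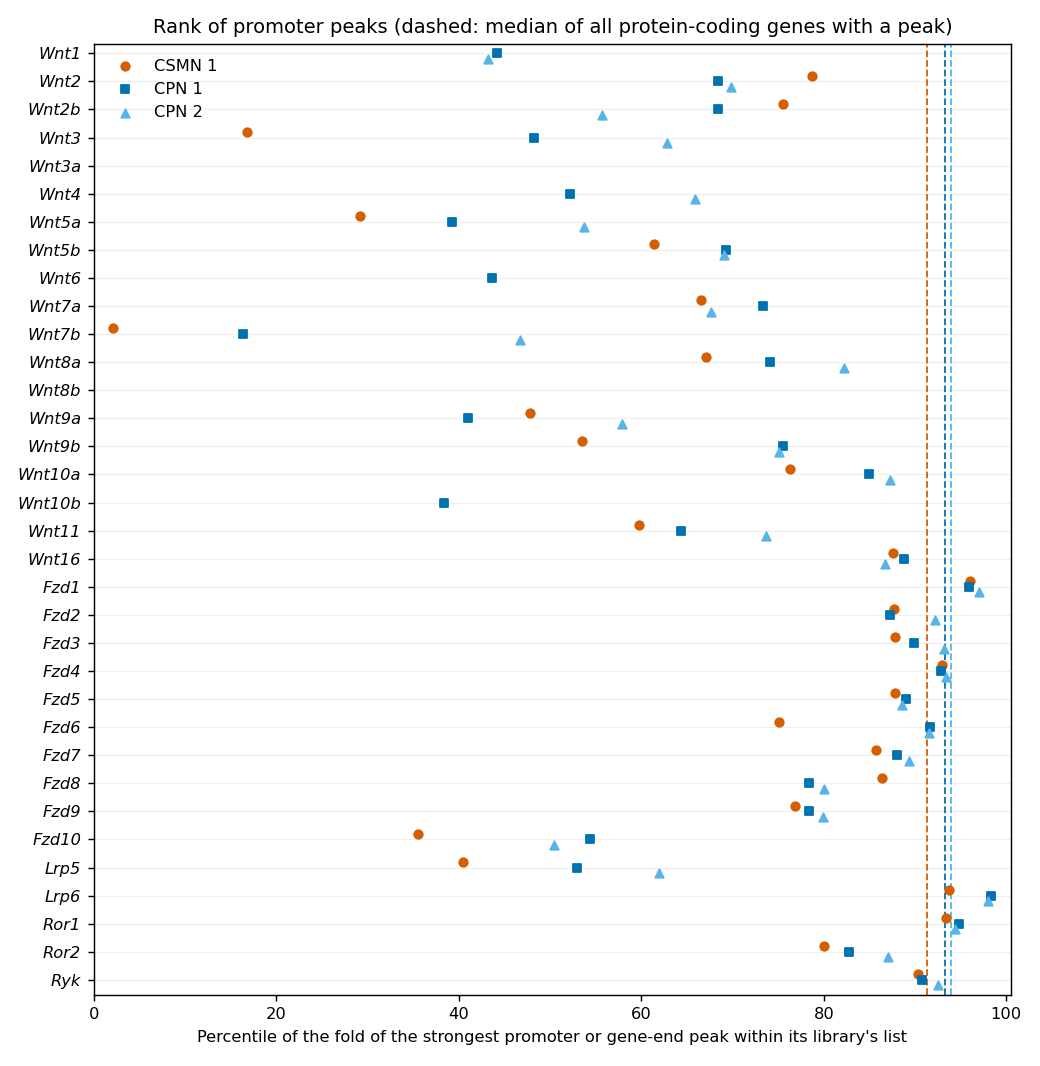
Percentile, on the x axis, of the fold of the strongest promoter or gene-end peak of each gene within its own library's list; each point is 1 library (CSMN circles, CPN 1 squares, CPN 2 triangles) and the dashed lines are the medians over all protein-coding genes with such a peak, 91.3 in CSMN, 93.2 in CPN 1 and 93.9 in CPN 2. Every ligand point lies left of the line of its library, while Fzd1, Lrp6 and Ror1 lie to the right of it, and Wnt3a and Wnt8b have no point.

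In sequence, the promoters of the family were rich in G and C. The median GC content of the 27 promoter windows of the 24 genes was 71.3%, against 56.3% over 21263 protein-coding promoters, and the observed over expected frequency of CpG was 0.810 against 0.567. The GC box GGGCGG, searched on both strands, occurred in 22 of 27 windows, or 81.5%, against 46.2% of protein-coding promoters. The TCF/LEF motif CTTTGAT occurred in 2 of 27 windows, 7.41% against 3.22%, at the starts of Wnt11 and Wnt5b shown above. Its variant CTTTGAA occurred in 0 of 27 windows, against 4.54%, so that either TCF/LEF motif was found in 7.41% of the family's windows and 7.57% of protein-coding promoters. The E-box CAGATG occurred in 3 of 27, at Ror2, Wnt16 and Wnt5b, 11.1% against 14.6%. In the Wnt11 window the TCF/LEF match directly adjoins a GC box, as its capitals show. The Fzd1 bases shown hold none of these motifs, although Fzd1 had among the strongest promoter peaks.

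Over their whole windows the 34 genes held 386 regions. Of these 30 were CSMN-only, 90 CPN-only and 116 open in all 3 libraries, while 49 were found in CPN 1 alone, 88 in CPN 2 alone, 7 in CSMN and CPN 1 and 6 in CSMN and CPN 2. As shares of the regions in gene windows, CSMN-only regions made up 7.77% at these genes and 9.41% over all protein-coding genes, CPN-only regions 23.3% and 19.5%, and regions of all 3 libraries 30.1% and 32.4%. The mixed classes were small in both, and over all genes 1.86% of regions joined CSMN to CPN 1 and 2.16% joined it to CPN 2. The CSMN share, meaning CSMN-only regions as a percentage of the sum of both classes, was 25.0% (18.1 to 33.4), against 32.5% over all genes, a value inside the interval. The genes were densely covered, with a median of 20.3 regions per 100 kb of window against 10.4 over all genes. Regions at neighboring family members were counted once in these totals, and Wnt10a and Wnt6 shared 6 regions, Wnt3 and Wnt9b 5, Wnt1 and Wnt10b 2, and Wnt3a and Wnt9a 1.

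The CSMN-only regions of the family were mostly weak, with a median fold of 2.26 in CSMN, at the percentile 14.1 of the list, and 2 of 30 reached a −log10 q of 5. Their median width was 163 bp. CPN-only regions had median folds of 3.18 in CPN 1 and 3.50 in CPN 2, at the percentiles 35.8 and 44.8, a median width of 289 bp, and a −log10 q of at least 5 in both CPN libraries at 53 of 90. Such strong regions made up 6.67% of the CSMN-only class and 58.9% of the CPN-only class at the family, against 11.0% and 59.6% over all genes. Regions of both classes lay mostly in gene bodies, with 23 of the 30 CSMN-only and 71 of the 90 CPN-only ones there. The same held for 84 of the 116 regions of all 3 libraries. Among regions in the windows of all protein-coding genes, 10532 of 12651 CSMN-only and 22386 of 26272 CPN-only ones lay in a gene body. This location is therefore not particular to the family or to the 2 classes.

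By gene, 5 members had more CSMN-only than CPN-only regions, or 14.7%, close to the 14.5% of all protein-coding genes. More CPN-only than CSMN-only regions were found at 21 members, or 61.8%, against 37.9% of all genes. Many genes with few regions had neither class, so members with unequal counts were also set against all such genes. Of 26 such members 80.8% leaned to CPN, against 72.3% of such genes overall. At least 1 CSMN-only region occurred at 16 of 34 members, against 32.4% of all genes, and at least 1 CPN-only region at 23 of 34 members, against 47.7% of all genes. All 34 members had a region open in all 3 libraries, which 78.3% of all genes had. The 8 members with neither class were Wnt2b, Wnt8a, Wnt8b, Wnt16, Fzd1, Fzd7, Fzd8 and Fzd9.

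**Figure D2:**
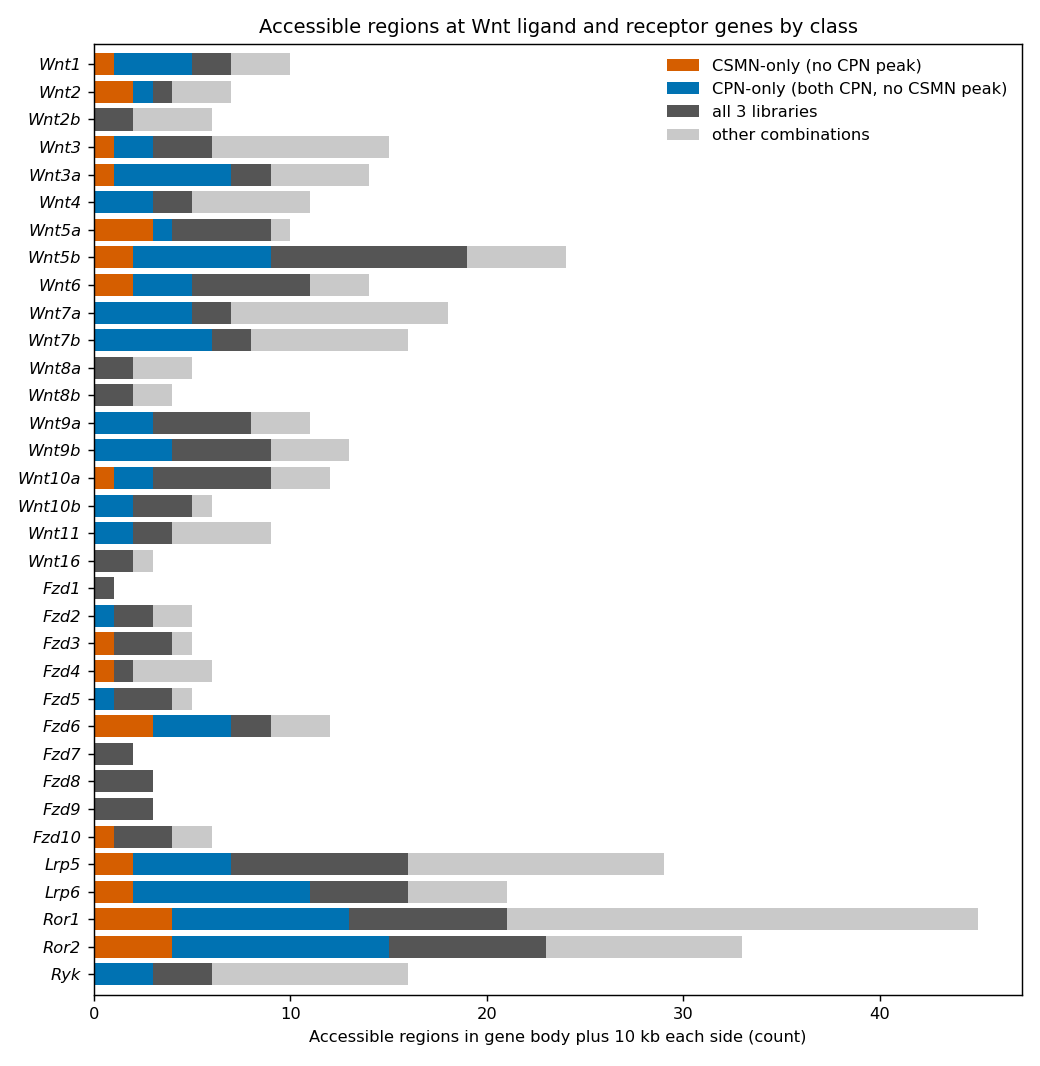
Number of accessible regions (x axis) in the gene body plus 10 kb each side of each gene, with CSMN-only regions in orange, CPN-only regions in blue, regions of all 3 libraries in dark gray and other combinations in light gray. Ror2 with 11 and Lrp6 and Ror1 with 9 each hold the most CPN-only regions, and Wnt5a, with 3 against 1, is the gene that leans most to CSMN.

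The ligands leaned to CPN more than the Frizzled genes in raw counts. The 19 ligand genes held 12 CSMN-only and 47 CPN-only regions and a CSMN share of 20.3% (12.04 to 32.3). More CPN-only regions were found at 13 ligands, more CSMN-only regions at 2, Wnt2 and Wnt5a, and neither class at 4. Over all protein-coding genes 37.9% had more CPN-only and 14.5% more CSMN-only regions, and the CSMN share was 32.5%. Among the 15 ligands with unequal counts 86.7% leaned to CPN, against 72.3% of such genes overall.

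The paralogs Wnt7a and Wnt7b had 3 peaks each in CSMN and no CSMN-only region. Wnt7a, which promotes synapse formation, had 3 peaks in CSMN, 12 in CPN 1 and 14 in CPN 2, with 0 CSMN-only, 5 CPN-only and 2 shared regions. Wnt7b, which promotes dendrite growth and brain vessel development, had 3 peaks in CSMN, 12 in CPN 1 and 14 in CPN 2, with 0 CSMN-only, 6 CPN-only and 2 shared regions. At Wnt7a the shared regions were the promoter, with folds of 3.63 in CSMN, 6.01 in CPN 1 and 4.95 in CPN 2, and a region in the gene body, with folds of 2.35 in CSMN, 4.50 in CPN 1 and 5.72 in CPN 2. The strongest CPN-only region of Wnt7a by its lower fold, at 91359728 to 91360267 of chromosome 6, had folds of 5.18 in CPN 1 and 4.99 in CPN 2. At Wnt7b the strongest CPN-only region, at 85555658 to 85556321 of chromosome 15 in the gene body, had folds of 4.52 in CPN 1 and 5.99 in CPN 2. Both genes thus had fewer peaks in CSMN than in either CPN library.

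Wnt5b, which acts in limb and cartilage growth, had the most peaks of all ligands, 14 in CSMN, 20 in CPN 1 and 22 in CPN 2. Its regions comprised 2 CSMN-only, 7 CPN-only and 10 shared, and 10 of its 24 regions also lie in the window of another gene, such as Fbxl14, which lies inside its body. The strongest CSMN-only region of the whole family lay in the Wnt5b body at 119535798 to 119536299 of chromosome 6, with a fold of 3.21 and a −log10 q of 7.43 in CSMN. In the same gene body a CPN-only region at 119499426 to 119499741 had folds of 6.57 in CPN 1 and 5.88 in CPN 2. Regions of opposite classes therefore occurred within a single gene.

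Wnt5a, the ligand that repels corticospinal axons in the mouse spinal cord, had 8 peaks in CSMN, 7 in CPN 1 and 7 in CPN 2. It was the only ligand apart from Wnt2 with more CSMN-only than CPN-only regions, 3 against 1, and 5 regions were shared. The strongest of the CSMN-only regions, at 28510083 to 28510449 of chromosome 14 in the gene body, had a fold of 2.87 and a −log10 q of 6.94. Directly beyond it, at 28510533 to 28510819, lay the CPN-only region, with folds of 2.97 in CPN 1 and 2.70 in CPN 2. With peaks of −log10 q of at least 5 alone, the difference at Wnt5a turned to −2, CSMN-only minus CPN-only. Wnt2, a ligand of placenta and vessel development, had 2 CSMN-only and 1 CPN-only regions from 3 peaks in CSMN, 3 in CPN 1 and 7 in CPN 2, and without CPN 1 its difference turned to −2.

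Some of the CPN-only regions with the highest folds lay between ligand genes. The strongest of the family by its lower CPN fold lay before the Wnt1 start, at 98788034 to 98788226 of chromosome 15, and is also within 10 kb of Wnt10b, with folds of 6.12 in CPN 1 and 7.19 in CPN 2. Wnt1 had 3 peaks in CSMN, 6 in CPN 1 and 9 in CPN 2, and with 1 CSMN-only, 4 CPN-only and 2 shared regions it was the most densely covered member, at 41.7 regions per 100 kb. However, 5 of its 10 regions also lie in the window of another gene. With regions in the window of a single gene alone, Wnt1 had 1 CSMN-only and 2 CPN-only regions. Wnt10b had 4 peaks in CSMN, 5 in CPN 1 and 7 in CPN 2, with 0 CSMN-only, 2 CPN-only and 3 shared regions, of which the strongest, with folds of 7.95 in CSMN, 18.1 in CPN 1 and 17.4 in CPN 2, lay at the promoter of the neighbor Arf3. A region between Wnt3a and Wnt9a, at 59298048 to 59298382 of chromosome 11, was CPN-only with folds of 5.99 in CPN 1 and 6.24 in CPN 2. Another in the Wnt3a body, at 59282975 to 59283396, was CPN-only with folds of 5.83 in CPN 1 and 5.88 in CPN 2. Wnt3a, which acts at the cortical hem in hippocampal development, had 4 peaks in CSMN, 12 in CPN 1 and 9 in CPN 2, with 1 CSMN-only and 6 CPN-only regions.

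Among the other ligands, Wnt9b, which induces kidney tubules, had 0 CSMN-only regions against 4 CPN-only, and Wnt9a had 0 CSMN-only against 3 CPN-only. Wnt4 had 0 CSMN-only and 3 CPN-only regions from 3 peaks in CSMN, 10 in CPN 1 and 7 in CPN 2. Wnt11, a ligand of β-catenin-independent signaling, had 0 CSMN-only regions against 2 CPN-only, and Wnt3 had 1 CSMN-only against 2 CPN-only. Wnt6 had 8 peaks in CSMN, 9 in CPN 1 and 13 in CPN 2, with 2 CSMN-only, 3 CPN-only and 6 shared regions. Wnt10a, a ligand of tooth and skin development, had 7 peaks in CSMN, 9 in CPN 1 and 11 in CPN 2, with 1 CSMN-only, 2 CPN-only and 6 shared regions. Wnt10a and Wnt6 share the CSMN-only region at 74782684 to 74783177 of chromosome 1, with a fold of 2.60 in CSMN, which lies in the Wnt6 body. Wnt2b, Wnt8a, Wnt8b and Wnt16 held 2 shared regions each and neither CSMN-only nor CPN-only ones.

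**Figure D3:**
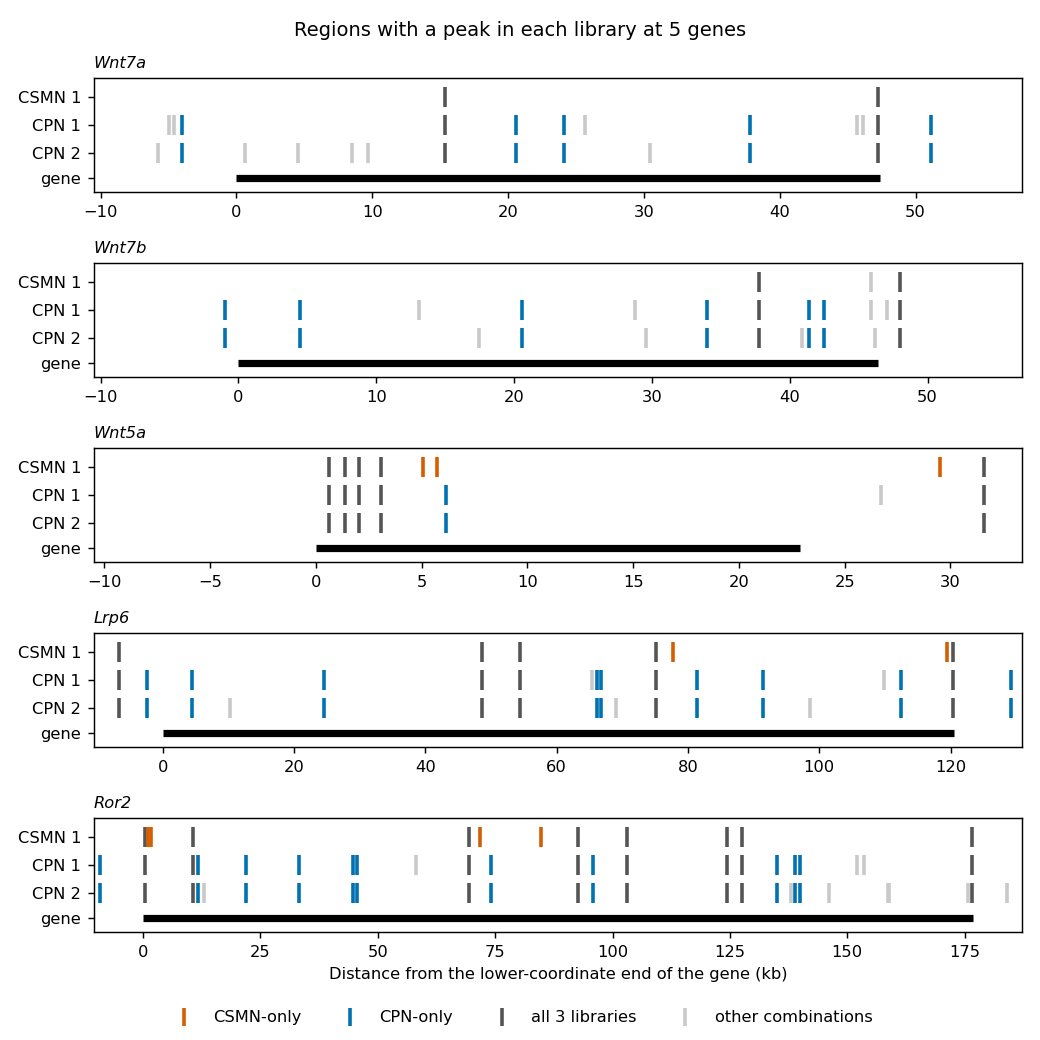
Position of every region with a peak in CSMN, CPN 1 or CPN 2 (lines of ticks) along 5 genes, as distance in kb from the gene's end with the lower coordinate; the black bar is the gene body, and colors mark CSMN-only (orange), CPN-only (blue), shared (dark gray) and other regions (light gray). At Wnt7a and Wnt7b the CSMN line holds few ticks against many in each CPN library, whereas Wnt5a has a cluster of 4 shared regions in the first part of its body in all 3 libraries.

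The Frizzled genes held as many CSMN-only as CPN-only regions, and shared regions outnumbered both together. The 10 genes held 48 regions, 6 CSMN-only, 6 CPN-only and 23 open in all 3 libraries. Their CSMN share was 50% (25.4 to 74.6), an interval that includes the 32.5% of all genes as well as the 20.3% of the ligands. Regions of all 3 libraries made up 47.9% of Frizzled regions, against 32.4% over all genes. In the groups of other pathway genes described below this share ranged from 24.6% at planar polarity genes to 60% at secretion genes. None of the 6 CSMN-only regions and 2 of the 6 CPN-only regions were strong, against 11.0% and 59.6% over all genes. Fzd6, a receptor of hair and planar polarity, held 3 of the CSMN-only and 4 of the CPN-only regions.

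Fzd1 was the extreme case, with a single region, at 4755892 to 4758488 of chromosome 5, in all 3 libraries. That region spans the Fzd1 start, with folds of 11.1 in CSMN, 16.5 in CPN 1 and 17.5 in CPN 2. Fzd4, the receptor of Norrin in retinal vessels, had a promoter region at 89403236 to 89405071 of chromosome 7 with folds of 9.07 in CSMN, 13.0 in CPN 1 and 12.9 in CPN 2, and this region also covers the start of Tmem135. Fzd3, which is required for major forebrain axon tracts in mice, had a gene-end peak with folds of 6.80 in CSMN, 10.9 in CPN 1 and 12.7 in CPN 2. Fzd10 had the weakest Frizzled promoter, with folds of 2.57 in CSMN, 4.12 in CPN 1 and 3.72 in CPN 2. These promoters were present in every library. The peaks of CSMN, CPN 1 and CPN 2 numbered 4, 3 and 4 at Fzd3, 4, 3 and 3 at Fzd4, and 5, 4 and 4 at Fzd10. Fzd3, Fzd4 and Fzd10 each had 1 CSMN-only region against 0 CPN-only, and these CSMN-only peaks had folds of 2.08, 2.34 and 2.17. The difference, CSMN-only minus CPN-only, turned to −2 at Fzd4 with 50 kb each side and to −1 at Fzd10 with peaks of −log10 q of at least 5 alone. Fzd2 and Fzd5 each had 0 CSMN-only and 1 CPN-only regions, while Fzd7, Fzd8 and Fzd9 held shared regions alone, 2, 3 and 3.

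The LRP co-receptors had gene-end peaks in every library and most of their CPN-only regions inside the gene. Together they held 4 CSMN-only, 14 CPN-only and 14 shared regions and a CSMN share of 22.2% (9.00 to 45.2). Lrp6, the main β-catenin co-receptor in the embryo, had 8 peaks in CSMN, 16 in CPN 1 and 17 in CPN 2. Its gene-end region at 134566254 to 134567453 of chromosome 6 had folds of 9.49 in CSMN, 20.9 in CPN 1 and 19.5 in CPN 2, the highest promoter fold of the family in both CPN libraries. Of its other regions 2 were CSMN-only and 9 CPN-only, and the CPN-only region at 134512989 to 134513412 had folds of 8.23 in CPN 1 and 5.99 in CPN 2. A CSMN-only region in the same body, at 134524122 to 134524355, had a fold of 2.52 in CSMN. Lrp5, known for its role in bone mass, had 12 peaks in CSMN, 19 in CPN 1 and 23 in CPN 2, with 2 CSMN-only, 5 CPN-only and 9 shared regions. Its own gene-end peak was modest, with folds of 2.67 in CSMN, 4.04 in CPN 1 and 4.39 in CPN 2. The strongest region in its window, with folds of 11.97 in CSMN, 15.2 in CPN 1 and 14.9 in CPN 2, lay at the promoter of the neighbor Ppp6r3.

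Ryk, Ror1 and Ror2, the receptors that act largely without β-catenin, had promoters open in every library and many regions in long gene bodies. They held 8 CSMN-only, 23 CPN-only and 19 shared regions and a CSMN share of 25.8% (13.7 to 43.2). Strong regions were 0 of the 8 CSMN-only and 15 of the 23 CPN-only ones, against 11.0% and 59.6% over all genes. Ror2, a receptor of Wnt5a, had 4 CSMN-only regions against 11 CPN-only, and its excess of CPN-only regions was the largest of the family together with that of Lrp6. Its peaks numbered 13 in CSMN, 22 in CPN 1 and 29 in CPN 2, and its promoter had folds of 5.02 in CSMN, 8.07 in CPN 1 and 8.92 in CPN 2. Ror1 had the most regions of the family, 45 in a window of 369 kb, with 4 CSMN-only, 9 CPN-only and 8 shared regions. Its peaks numbered 13 in CSMN, 23 in CPN 1 and 36 in CPN 2, and its promoter had folds of 9.30 in CSMN, 15.1 in CPN 1 and 13.9 in CPN 2. A CSMN-only region of Ror1 at 100395397 to 100395560 of chromosome 4 had a fold of 2.52 in CSMN. Ryk, the receptor through which Wnt5a repels corticospinal axons in mice, had 4 peaks in CSMN, 8 in CPN 1 and 15 in CPN 2. Its promoter was open in all 3 libraries, with folds of 7.73 in CSMN, 11.5 in CPN 1 and 12.1 in CPN 2, and inside the gene 0 regions were CSMN-only and 3 CPN-only.

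The balance was also counted without the long receptor genes. Without Lrp5, Lrp6, Ryk, Ror1 and Ror2, the remaining 29 genes held 18 CSMN-only and 53 CPN-only regions and a CSMN share of 25.4% (16.7 to 36.6). The balance changed with how the lists were cut. With peaks of −log10 q of at least 5 alone the CSMN share was 2.38%, against 8.34% over all genes. With lists of equal length it was 43.0%, against 53.7%, and then 9 members leaned to CSMN and 13 to CPN, where 25.9% and 22.7% of all genes did.

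**Figure D4:**
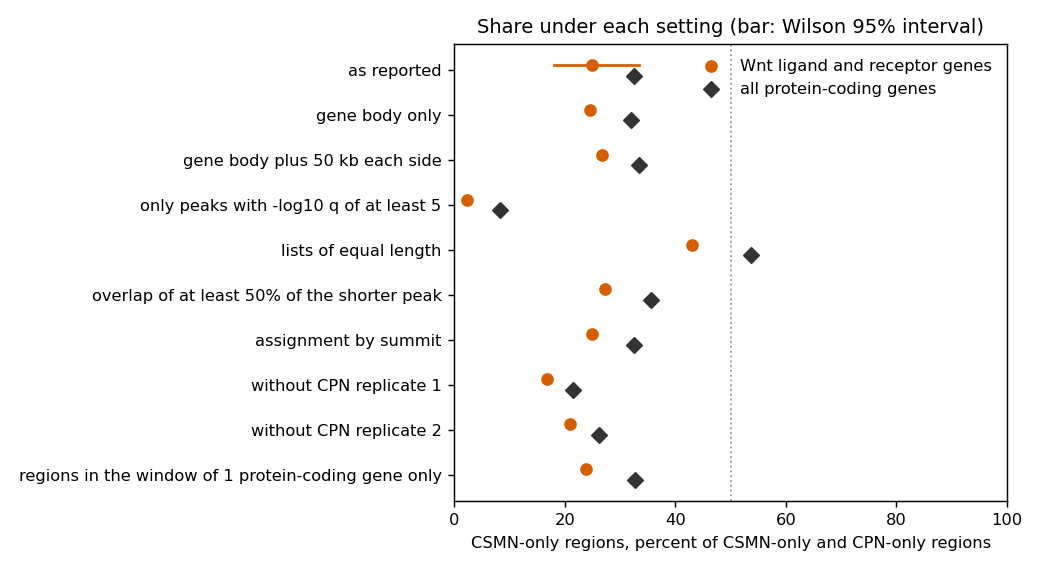
CSMN share, the CSMN-only regions as a percentage of CSMN-only and CPN-only regions on the x axis, at the Wnt ligand and receptor genes (circles) and at all protein-coding genes (diamonds) under each setting; the bar on the first point is its Wilson 95% interval, 18.1 to 33.4, and the dotted line marks 50%. The circle lies left of the diamond in each setting, and with lists of equal length the circle, at 43.0%, and the diamond, at 53.7%, lie on opposite sides of the line.

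Other genes of the pathway, 54 taken from a list by role, held 57 CSMN-only, 196 CPN-only and 259 shared regions and a CSMN share of 22.5% (17.8 to 28.1). Of these genes 7 had more CSMN-only and 36 more CPN-only regions, where 14.5% and 37.9% of all protein-coding genes did, and the CSMN share over all genes was 32.5%. Among the 43 pathway genes with unequal counts 83.7% leaned to CPN, against 72.3% of such genes overall. A promoter or gene-end peak was found at 46 of the 54 genes in CSMN, 49 in CPN 1 and 50 in CPN 2, against 63.7%, 66.4% and 66.8% of all genes. All 10 nuclear genes, such as the TCF/LEF factors, had a promoter peak in every library, and they held 15 CSMN-only and 57 CPN-only regions. The 12 cytoplasmic genes, among them Axin and Dvl genes, held 6 CSMN-only against 33 CPN-only, and the 12 secreted inhibitors 8 CSMN-only against 15 CPN-only. The R-spondins and their receptors, 7 genes, held 12 CSMN-only against 23 CPN-only, and the 4 genes of receptor turnover 1 CSMN-only against 18 CPN-only. The 7 planar polarity genes held 12 CSMN-only against 49 CPN-only, and the secretion genes Porcn and Wls 3 CSMN-only against 1 CPN-only. The largest CPN-only excess was at Daam1, a formin of the planar polarity branch, with 1 CSMN-only and 13 CPN-only regions. Lgr6, an R-spondin receptor, had 3 CSMN-only against 14 CPN-only, and Znrf3, a ligase that removes Frizzled receptors from the surface, had 0 CSMN-only against 11 CPN-only. In the other direction Vangl2, a core planar polarity gene, had 4 CSMN-only regions against 0 CPN-only, the R-spondin gene Rspo2 had 3 CSMN-only against 0, and the inhibitor gene Dkk2 had 2 CSMN-only against 0, the same difference as at Wls, and the Dkk2 difference turned to −1 with peaks of −log10 q of at least 5 alone.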

How the data were processed

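ATAC-seq peak lists of 1 CSMN and 2 CPN libraries were analysed. Tools listed in the submitters' processing notes are MACS2 2.2.7.1, BWA 0.7.17 and bedtools 2.29.2, with mm10 as the build and no step assigned to any. What the sources used here do not give are filters on reads, any transposase shift and the number of reads. The deposited lists, 1 per library, hold the authors' −log10 p, −log10 q and fold enrichment of each peak, a score, and the summit offset in bp. The deposited score was 10 times the −log10 q, to within 1, in all peaks, and the lowest −log10 q was 1.30 to 1.31.

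Peaks were merged at an overlap of 1 bp and assigned to gene bodies plus 10 kb each side, from a RefSeq table of GRCm38.p6 (mm10) without exons or, for the gene table, strand. Strong means a −log10 q of at least 5. A promoter peak overlaps a RefSeq promoter window or, where a gene has none, lies within 1 kb of either gene end, since the table does not say which end is the start. Shares carry Wilson 95% intervals. Whether the labels' biological replicates came from separate animals is not stated.

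The members, gene lists and rules were chosen with earlier results of these data known. All members were placed by role. Values per library were given for the members leaning most to either class, with promoter peaks in some libraries alone, with the strongest promoters and with the densest regions, for the 5 leading regions of each class, with counts by class for the 3 leading pathway genes each way, ties going to the gene with more regions; the other genes and regions described were chosen after their values were seen. No member lacked a peak. The markers of callosal neurons are not reported here. Overlap code was tested on simulated peaks. Python 3.11.15, pandas 2.3.3, numpy 2.4.6 and scipy 1.17.1 were used. Alternatives were the gene window, a −log10 q of at least 5, lists of equal length (the 98067 peaks with the highest −log10 p), an overlap of 50% of the shorter peak, assignment by summit, each CPN library left out, and, chosen after seeing the data, regions in the window of a single gene. A further alternative, for promoter peaks alone, was a peak within 1 kb of the gene start.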

Additional observations from a re-analysis of the deposited data

How the results depend on the processing

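The direction of the balance, more CPN-only than CSMN-only regions at the family, held in all 9 alternatives that counted regions, but its size did not. With the gene body alone, 3 members leaned to CSMN, against 10.48% of all genes. With 50 kb each side there were 52 CSMN-only, 142 CPN-only and 224 shared regions, and 8 members leaned to CSMN, against 19.5% of all genes. With a −log10 q of at least 5 there were 2 CSMN-only regions, and 0 members leaned to CSMN, against 2.91% of all genes. The CSMN share was then 2.38%, against 8.34% over all genes. With lists of equal length, which trims the CPN lists alone, there were 53 CPN-only regions. Then 9 members leaned to CSMN and 13 to CPN, against 25.9% and 22.7% of all genes. The CSMN share was 43.0%, against 53.7%, and 2 of 24 start regions were CPN-only, against 2.45% over all genes. By summit, where a summit must lie in the window, 2 of 11 start regions were CPN-only, or 18.2%, against 3.52% over all genes. A promoter peak was then found at 17 members in CSMN, 22 in CPN 1 and 21 in CPN 2, against 48.5%, 51.8% and 55.3% of all genes. With a peak within 1 kb of the gene start counted, the members with a promoter peak numbered 31 in CSMN, 33 in CPN 1 and 32 in CPN 2. Over all genes 67.1%, 69.3% and 70.4% had one. Leaving out CPN 1 or CPN 2, there were 139 to 189 CPN-only regions, now defined by the remaining CPN library, and 37 to 38 CSMN-only regions. Without CPN 1, 3 members leaned to CSMN, against 9.13% of all genes, and without CPN 2, 6 did, against 12.1%. The CSMN share was 16.7% to 21.0%, against 21.4% to 26.2% over all genes. CPN-only start regions were 2 of 21 without CPN 1, against 6.92%, and 4 of 24 without CPN 2, against 5.31%. CSMN-only minus CPN-only regions changed sign at Fzd4 (−2, with 50 kb), Wnt5a (−2), Fzd10 (−1) and Dkk2 (−1, all with a −log10 q of at least 5) and Wnt2 (−2, without CPN 1). The cause of these shifts was not tested. Of 23 genes for which this was run, which exclude Wnt3a, Lrp5 and Ryk, the others kept their sign or came to 0, apart from Fzd1, at 0 as reported and 1 with 50 kb each side. Their size did not hold. With lists of equal length the difference shrank from −7 to −3 at Ror2, −7 to −5 at Lrp6, −5 to −1 at Ror1 and −11 to −3 at Lgr6. It came to 0 at Wnt4, Wnt6 and Wnt10a. Without CPN 1 it grew to −16 at Ror2, −10 at Lrp6, −23 at Ror1 and −14 at Lgr6. The cause of these changes was also not tested. Lists with no read counts leave the depth unknown, and a region missing from a list may hold signal under its threshold. No paired analysis was possible because CSMN had 1 library.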
